A study of Homo sapiens with 4 samples.

Results

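EGR1, EGR2, EGR3, NR4A1, NR4A2, NR4A3, IER2, IER3 and IER5 are early response genes, and they were followed here in 2 clones of Raji, an established Burkitt lymphoma cell line that carries Epstein-Barr virus. The members are the probe sets whose platform annotation gives 1 of these 9 symbols alone. They number 16 of the 54613 probe sets on the array and stand for 8 genes, of 19775 gene symbols in all, because no probe set carried EGR2 alone in the annotation used here. They were found by symbol and not by a cut on measured values, although the genes were listed with earlier results of these data known.

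One clone was that in which DLEU1, a long non-coding RNA gene, had been downregulated with TALENs, engineered proteins that join a programmable DNA-binding array to a nuclease. It was set against a wild-type Raji control clone. Each clone was hybridised to 2 Affymetrix HG-U133 Plus 2.0 arrays, and both were kept in RPMI medium with serum, with no stimulus named in the labels. The treatment label names the DLEU1 TALENs for all 4 arrays, the control arrays included, and the sources used here do not say whether the control clone had also received them. Each genotype was 1 clone, so a difference between clones and an effect of the edit cannot be told apart. The kind of duplicate was not given either, so the p-values reflect no more than array-to-array spread, possibly of technical origin. In bulk RNA, fewer cells with a transcript and less transcript per cell cannot be told apart.

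Early response genes are switched on within minutes of a signal, from factors already present in the cell and without new protein synthesis. In B cells the antigen receptor, calcium and the ERK kinase cascade are well-known triggers. ERK acts on ETS-family cofactors of the serum response factor SRF, which sits on CArG boxes before EGR genes, while CREB and MEF2 are known regulators of NR4A genes. EGR proteins are zinc finger transcription factors, NR4A proteins are orphan nuclear receptors that need no known ligand, and the IER proteins act on phosphatases and other factors.

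Across the arrays the trimmed mean intensity was 172 and 197 for the DLEU1-downregulated clone and 163 and 131 for the control clone, so the arrays were quantile normalized before testing and the values as deposited are given beside the results. All log2 differences are DLEU1-downregulated minus control, and their median over all tested probe sets was 0.01 after quantile normalization and 0.16 as deposited. DLEU1 read 523.7 and 616.9 in the DLEU1-downregulated clone and 1363.4 and 1023.8 in the control clone, a log2 difference of -1.38 ± 0.07 (SE, limma adjusted p = 2.90e-06), in the direction of the labels. Of 8 B-cell markers, 7 had a probe set, and these read 372.6 to 8376.2 over the arrays, whereas no T-cell, monocyte or epithelial marker passed 59.1. Of the 7, limma called 5 lower and 1 higher after quantile normalization and 0 lower and 1 higher as deposited. Over all tested genes by brightest probe set, 20.6% were lower and 20.6% higher, and 5.74% and 20.3% as deposited. The T-cell markers summed to 84.7 and 95.8 in the DLEU1-downregulated clone and 72.7 and 54.1 in the control clone. TRAT1, a T-cell receptor adaptor, was the member of that list that rose (log2 difference 1.24, limma adjusted p = 0.00269), while CD3D, CD3E and CD3G read 1.7 to 20. TRAT1 read 39.5 and 59.1 in the DLEU1-downregulated clone and 12.7 and 9.7 in the control clone. Both control values lay under the 40th percentile of all probe sets on their arrays. TRAT1 was thus bright enough to test only through the clone in which it was higher. The 6 fibroblast markers summed to 175.6 and 122.1 in the DLEU1-downregulated clone and 206.6 and 210.5 in the control clone. The brightest, COL1A1, read 110.9 and 84.7 in the DLEU1-downregulated clone and 90.2 and 121.2 in the control clone. It was not called (limma adjusted p = 0.346). Of 4 tested fibroblast markers, 1 was called lower and 0 higher. COL1A2, a collagen gene, was the marker that fell, by 1.13 (limma adjusted p = 0.0239). COL1A2 read 16.7 and 1.4 in the DLEU1-downregulated clone and 44.8 and 29.4 in the control clone. It was bright enough to test mainly through the control clone. GAPDH, whose 3′ to 5′ signal ratio tracks RNA integrity, had a log2 ratio of -0.10 and -0.16 in the DLEU1-downregulated clone and -0.17 and -0.16 in the control clone. The same ratio for ACTB was 0.52 and 0.48 in the DLEU1-downregulated clone and 0.47 and 0.68 in the control clone, highest on control replicate 2. The part of these shifts in the results below was not tested.

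EGR1 stood lower in the DLEU1-downregulated clone in all 3 of its probe sets, by 2.19-fold to 3.47-fold on the log2(value + 16) scale. IER3 also fell and IER5 rose, each with a call that was lost without some single arrays. EGR3 fell after quantile normalization, but its call was lost as deposited and without any 1 array, and the call for IER2 depended on how the arrays were scaled. Of 3 NR4A1 probe sets 1 rose, and it was bright enough to test only through the clone in which it was higher. Of 16 member probe sets, 12 were bright enough to test, meaning that their mean log2 value reached the 40th percentile of all probe sets. Among these 12, 6 were lower and 2 higher in the DLEU1-downregulated clone at an adjusted p under 0.05 (limma, Benjamini-Hochberg over 32768 probe sets). Over all tested probe sets, 16.7% were lower and 17% higher by the same test. As deposited, 4 of the 12 were lower and 2 higher, against 5.11% and 17.2% of all tested probe sets. The median log2 difference of the 12 was -0.56. The 3 EGR1 probe sets were among those lower on both scales, so 1 gene counts more than once in these figures. Of 7 genes with a tested probe set, EGR1, EGR3, IER2 and IER3 were lower after quantile normalization, and EGR1 and IER3 as deposited. By brightest tested probe set, 20.6% of all genes were lower after quantile normalization and 5.74% as deposited. An exact two-sided permutation test over the 6 assignments of 4 arrays cannot go below p = 0.333, so the calls rest on the spread that limma shares among probe sets.

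**Figure D1:**
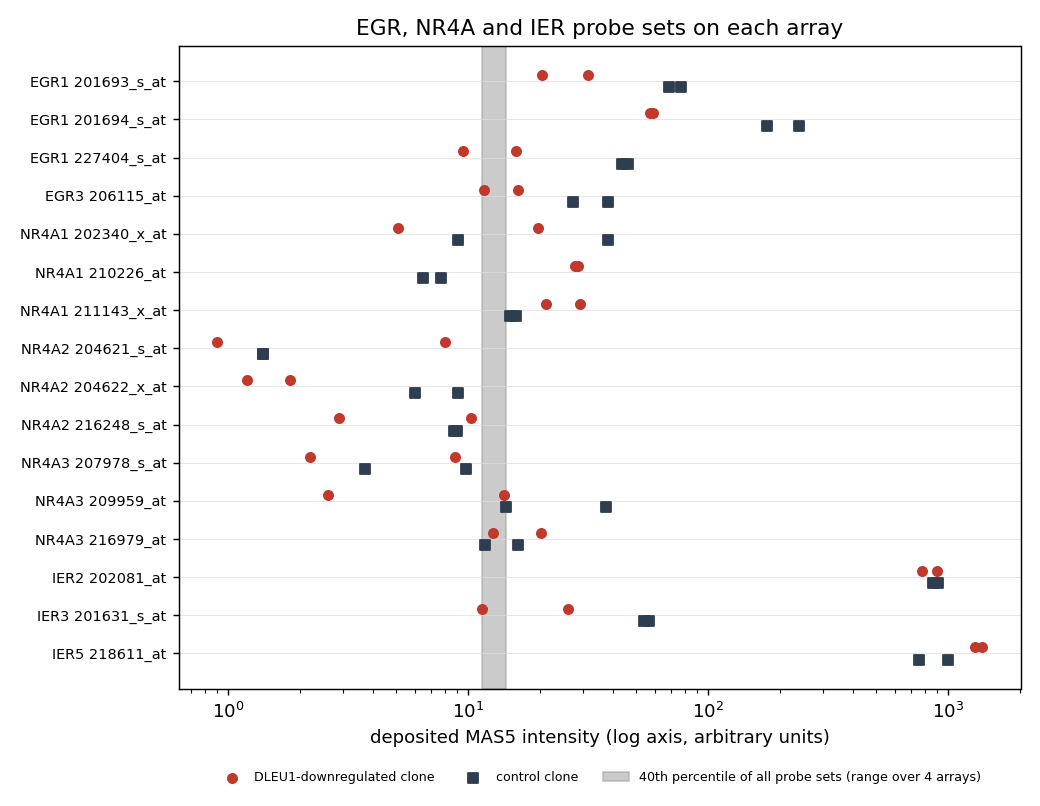
Deposited intensity (log axis) of each of the 16 member probe sets on each of the 4 arrays, with circles for the DLEU1-downregulated clone, squares for the control clone and a grey band for the 40th percentile of all probe sets on the 4 arrays. The EGR1, EGR3 and IER3 circles lie left of the squares, the NR4A probe sets lie between 0.9 and 38.2, and IER2 and IER5 lie far to the right of the other members.

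EGR1, also known as KROX-24 or ZIF268, is a zinc finger factor induced by growth signals and by the antigen receptor. Its probe set 201694_s_at read 57.3 and 58.8 in the DLEU1-downregulated clone and 239 and 176.7 in the control clone. Both arrays of the DLEU1-downregulated clone were low and close together, and the groups did not overlap. The mean intensity was 58.1 ± 1.06 in the DLEU1-downregulated clone and 207.9 ± 44.1 in the control clone (SD, n = 2 arrays each). The log2 difference was -1.79 ± 0.13 (SE, 95% confidence interval -2.10 to -1.49, limma adjusted p = 1.91e-05), and -1.58 as deposited. It was the 154th largest drop among 32768 tested probe sets, of which 99.4% had a smaller difference in either direction.

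The other EGR1 probe sets also read lower in the DLEU1-downregulated clone. Probe set 201693_s_at read 20.3 and 31.7 in the DLEU1-downregulated clone and 76.9 and 68.6 in the control clone, a log2 difference of -1.19 ± 0.20 (SE, limma adjusted p = 0.00153). Probe set 227404_s_at read 9.5 and 15.8 in the DLEU1-downregulated clone and 46.2 and 43.9 in the control clone, a log2 difference of -1.13 ± 0.23 (SE, limma adjusted p = 0.00448). In neither probe set did the groups overlap. The 3 probe sets measure 1 gene on the same 4 arrays and are not replicates of each other. Because 16 was added before the logarithm, the fold is understated where intensities are low, and the ratio of mean intensities, control over DLEU1-downregulated, was 2.80, 3.58 and 3.56 for 201693_s_at, 201694_s_at and 227404_s_at. With a pseudocount of 1 or 64 in place of 16, the log2 difference was -1.60 or -0.67 for 201693_s_at, -2.05 or -1.30 for 201694_s_at and -1.81 or -0.54 for 227404_s_at, each past the threshold. One array of the DLEU1-downregulated clone lay below its 40th percentile for 227404_s_at, so that level is near the dim end of the array.

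The promoter of EGR1 is shown because it carries the sites through which SRF and CREB are known to act, and those of IER2 and IER5 as the bright members. They were chosen with the results known, and a link between motifs and the differences was not tested. The sequences are the 250 bases before the annotated transcript start, from RefSeq on build GRCh38.p14, 5′ to 3′. Capitals mark matches to the CArG box, to TGACG, the core of a cyclic AMP response element, and to ATTGG, the CCAAT box read on the other strand. A match on the minus strand appears as its reverse complement, CGTCA for TGACG, and both strands were searched.
EGR1 (chr5:138465229-138465478, plus strand): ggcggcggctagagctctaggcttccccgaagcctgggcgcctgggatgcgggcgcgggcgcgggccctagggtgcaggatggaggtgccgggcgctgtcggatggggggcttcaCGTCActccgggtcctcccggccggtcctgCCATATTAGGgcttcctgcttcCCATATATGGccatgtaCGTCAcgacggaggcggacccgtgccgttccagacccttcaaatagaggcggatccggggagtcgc
IER2 (chr19:13150161-13150410, plus strand): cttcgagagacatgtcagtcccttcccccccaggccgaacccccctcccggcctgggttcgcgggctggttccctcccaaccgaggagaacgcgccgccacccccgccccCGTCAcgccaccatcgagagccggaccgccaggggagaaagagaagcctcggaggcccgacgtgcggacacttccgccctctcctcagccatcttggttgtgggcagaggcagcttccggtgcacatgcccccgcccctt
IER5 (chr1:181088450-181088699, plus strand): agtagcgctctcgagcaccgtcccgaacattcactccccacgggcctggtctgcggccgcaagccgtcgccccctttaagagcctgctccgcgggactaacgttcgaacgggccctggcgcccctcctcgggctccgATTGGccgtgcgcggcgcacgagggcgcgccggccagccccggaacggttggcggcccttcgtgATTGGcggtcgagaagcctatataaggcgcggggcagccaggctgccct

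EGR1 held 2 CArG boxes, CCATATTAGG from 105 to 96 bases before the start and CCATATATGG from 83 to 74 bases before it, and 2 TGACG matches, with no overlap among the 4. A CArG box occurred in 1.16% of 35116 promoter windows of the same length and TGACG in 21.2%. IER2 held 1 TGACG match and no CArG box, and IER5 held neither. IER5 held 2 ATTGG matches, found in 32% of all windows, and 1 match to GAANNTTC, a heat shock element core found in 5.78%. Of the other members with a window, the third of 3 EGR2 windows held 1 CArG box and 2 TGACG matches, NR4A3 held 4 TGACG matches, and neither NR4A1 window held any motif searched. No match to GCGTGGGCG or GCGGGGGCG, both EGR binding motifs, to AAAGGTCA, an NR4A monomer motif, to TATAAA or to the full element TGACGTCA was present in any member window. These occurred in 0.72%, 4.72%, 1.05%, 10.7% and 1.65% of all windows, in that order. EGR3, NR4A2 and IER3 had no promoter window and were not searched. A match is a run of letters, and binding was not measured.

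**Figure D2:**
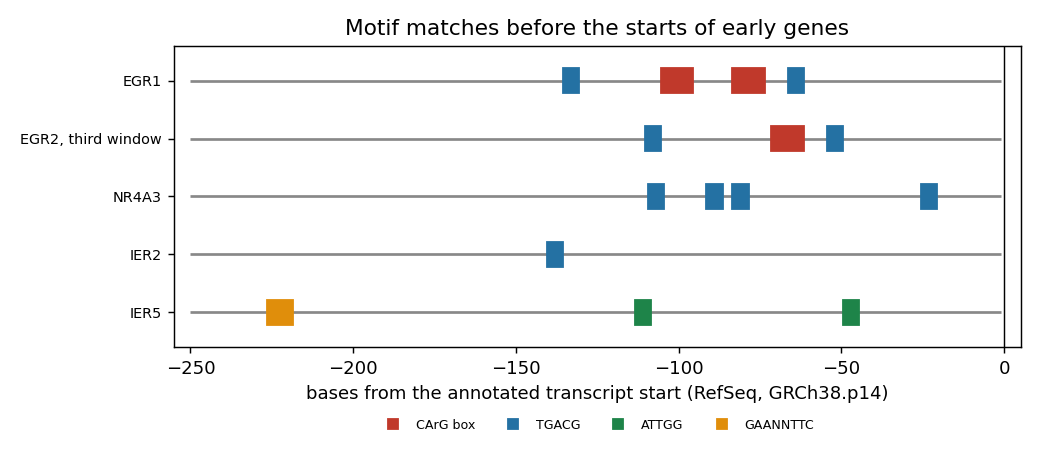
Positions of motif matches in the 250 bases before the annotated starts of EGR1, EGR2 (the third window), NR4A3, IER2 and IER5, as distance in bases from the start, with 1 colour per motif. CArG boxes lie before EGR1 and EGR2, and the cyclic AMP element core before EGR1, EGR2, NR4A3 and IER2. The CCAAT box and the heat shock element core lie before IER5.

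EGR3 is a close relative of EGR1 that is induced downstream of calcium and calcineurin in lymphocytes. Its probe set 206115_at read 11.6 and 16.2 in the DLEU1-downregulated clone and 38.4 and 27.4 in the control clone. The groups did not overlap, but the lower values lay close to the 40th percentile of their arrays. The log2 difference was -0.69 ± 0.22 (SE, 95% confidence interval -1.20 to -0.19, limma adjusted p = 0.0410). As deposited the log2 difference was -0.70 with an adjusted p = 0.0596, which did not pass. The call was also lost without any 1 of the 4 arrays (adjusted p 0.0751 to 0.196) and with no filter on dim probe sets (0.121). EGR3 lies on chromosome 8, and of the 30 tested genes next to it in RefSeq order, 15 on either side, limma called 14 lower and 0 higher (15 and 2 at an unadjusted p under 0.05), with a median log2 difference of -0.42. Over all tested genes 20.6% were called lower. Among the same number of neighbours, 10 were lower and 6 higher for EGR1, 5 and 6 for NR4A1, 8 and 4 for NR4A3, 5 and 10 for IER2, 9 and 3 for IER3 and 9 and 3 for IER5. The lower level of EGR3 thus lay among lower levels of its neighbours on the chromosome, and their part in its difference was not tested. EGR4, a relative that is no member, had a log2 difference of 0.30 (limma adjusted p = 0.360).

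**Figure D3:**
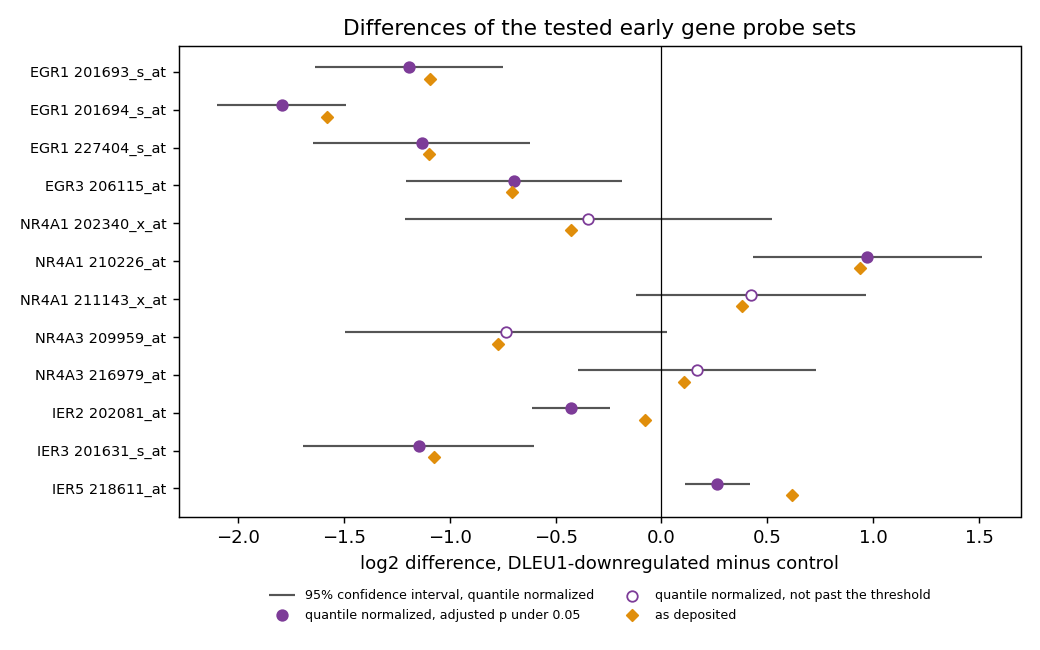
Log2 difference, DLEU1-downregulated minus control, of the 12 tested member probe sets, with 95% confidence intervals after quantile normalization (bars), filled circles for an adjusted p under 0.05, open circles for the rest and diamonds for the values as deposited. The 3 EGR1 probe sets and IER3 lie beyond -1 on both scales, whereas as deposited IER2 lies close to 0 and IER5 farther above it.

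The NR4A genes, the orphan receptors NUR77, NURR1 and NOR1, read at low intensities in both clones. Of the 36 intensities of their 9 probe sets, 34 lay under 30, where the median over all probe sets was 18.7 and 20 on the DLEU1-downregulated arrays and 22.6 and 18.4 on the control arrays. No detection calls were used here, so whether these levels were above background is unknown.

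NR4A1, or NUR77, is induced by antigen receptor signals and was the NR4A gene with a call. Its probe set 210226_at read 28.6 and 28 in the DLEU1-downregulated clone and 6.5 and 7.7 in the control clone. The groups did not overlap, and both control arrays lay below their 40th percentile. The log2 difference was 0.97 ± 0.24 (SE, 95% confidence interval 0.43 to 1.52, limma adjusted p = 0.0127), and 0.94 as deposited (adjusted p = 0.0128). With a pseudocount of 1 or 64 the log2 difference was 1.98 or 0.39. This probe set passed the filter on dim probe sets only through the clone in which it was higher. The call was lost without replicate 1 (adjusted p = 0.0863) or replicate 2 (0.0604) of the DLEU1-downregulated clone.

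The other NR4A1 probe sets, both with the suffix _x_at for possible cross-hybridisation, did not pass. Probe set 211143_x_at read 29.2 and 21.1 in the DLEU1-downregulated clone and 15.9 and 15 in the control clone, a log2 difference of 0.42 (95% confidence interval -0.12 to 0.97, limma adjusted p = 0.214). Probe set 202340_x_at read 19.6 and 5.1 in the DLEU1-downregulated clone and 38.2 and 9.1 in the control clone, so that arrays of 1 clone differed more than the clones did (log2 difference -0.35, 95% confidence interval -1.21 to 0.52, limma adjusted p = 0.536). The 3 NR4A1 probe sets thus gave no common direction.

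NR4A2, or NURR1, could not be tested. All 3 of its probe sets lay under the filter, with intensities of 0.9 to 10.3 over the 12 values. Probe set 204621_s_at read 8 and 0.9 in the DLEU1-downregulated clone and 1.4 and 1.4 in the control clone, and 216248_s_at read 10.3 and 2.9 in the DLEU1-downregulated clone and 9 and 8.7 in the control clone. Only 204622_x_at had groups that did not overlap, with 1.8 and 1.2 in the DLEU1-downregulated clone and 9.1 and 6 in the control clone.

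NR4A3, or NOR1, had 1 probe set under the filter, 207978_s_at, with 8.8 and 2.2 in the DLEU1-downregulated clone and 9.8 and 3.7 in the control clone. Its probe set 209959_at read 2.6 and 14.1 in the DLEU1-downregulated clone and 37.7 and 14.4 in the control clone, a log2 difference of -0.73 (95% confidence interval -1.49 to 0.03, limma adjusted p = 0.129). The groups did not overlap there, but the gap between them was far less than the spread within either clone. The third, 216979_at, read 12.7 and 20.1 in the DLEU1-downregulated clone and 16.2 and 11.8 in the control clone, with a log2 difference of 0.17 (95% confidence interval -0.39 to 0.73, limma adjusted p = 0.648).

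IER3, or IEX-1, is a small stress- and NF-kB-inducible protein that modulates ERK signalling and cell survival. It read 11.4 and 26 in the DLEU1-downregulated clone and 56.8 and 54.3 in the control clone. The groups did not overlap, and the control arrays were close together whereas the DLEU1-downregulated arrays were spread. Replicate 1 of the DLEU1-downregulated clone lay at the 40th percentile of its array, so that level is near the dim end. The mean intensity was 18.7 ± 10.3 in the DLEU1-downregulated clone and 55.6 ± 1.77 in the control clone (SD, n = 2 arrays each). The log2 difference was -1.15 ± 0.24 (SE, 95% confidence interval -1.69 to -0.60, limma adjusted p = 0.00579), and -1.08 as deposited (adjusted p = 8.69e-04). With a pseudocount of 1 or 64 it was -1.70 or -0.58. Without replicate 1 of the DLEU1-downregulated clone it was -0.86 and just missed the threshold (adjusted p = 0.0521).

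IER5, a nuclear protein known to bind phosphatase 2A and to promote activity of the heat shock factor HSF1, lay among the bright probe sets of every array. Its printed promoter window held no CArG box, and a link of motifs to the differences was not tested. IER5 read 1297.7 and 1389.3 in the DLEU1-downregulated clone and 1003.3 and 755.6 in the control clone. Every DLEU1-downregulated array was above every control array. The log2 difference was 0.26 ± 0.07 (SE, 95% confidence interval 0.11 to 0.42, limma adjusted p = 0.0147), against 0.62 as deposited (adjusted p = 0.0406). After quantile normalization, 44.7% of tested probe sets had a smaller difference in either direction. Tested probe sets of like brightness had a median log2 difference of 0.35 as deposited and 0.01 after quantile normalization. The call was lost without control replicate 2 (adjusted p = 0.0620) and without replicate 1 of the DLEU1-downregulated clone (0.134).

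IER2, a small nuclear protein induced by growth factors, was bright on every array as well. It read 779.5 and 897 in the DLEU1-downregulated clone and 904.5 and 862.5 in the control clone. As deposited these values overlapped, with a log2 difference of -0.08 (limma adjusted p = 0.866). After quantile normalization the groups no longer overlapped, and the log2 difference was -0.43 ± 0.08 (SE, 95% confidence interval -0.61 to -0.24, adjusted p = 0.00343). Of all tested probe sets, 65.1% had a smaller difference in either direction on that scale. Scaling to a common trimmed mean gave -0.40 (adjusted p = 0.00692) and median centring -0.03 (0.881). Its position on the arrays was the 91.8th and 91.7th percentile in the DLEU1-downregulated clone and the 93.3rd and 94.3rd in the control clone. IER2 thus passed as lower on 2 of 4 scalings, and it did not pass with eBayes without a trend (adjusted p = 0.0711).

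Among all 16 member probe sets, the groups did not overlap in 11, against 54.3% of all probe sets and 66% of tested ones after quantile normalization. When each array was left out in turn, the 3 EGR1 probe sets passed the threshold in every fit, with log2 differences of -1.88 to -1.71 for 201694_s_at, -1.29 to -1.03 for 201693_s_at and -1.25 to -0.97 for 227404_s_at. IER2 also passed in all 4 of these fits, and IER3 in 3 of 4. NR4A1 210226_at and IER5 each passed in 2 of 4, and EGR3 in none.

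**Figure D4:**
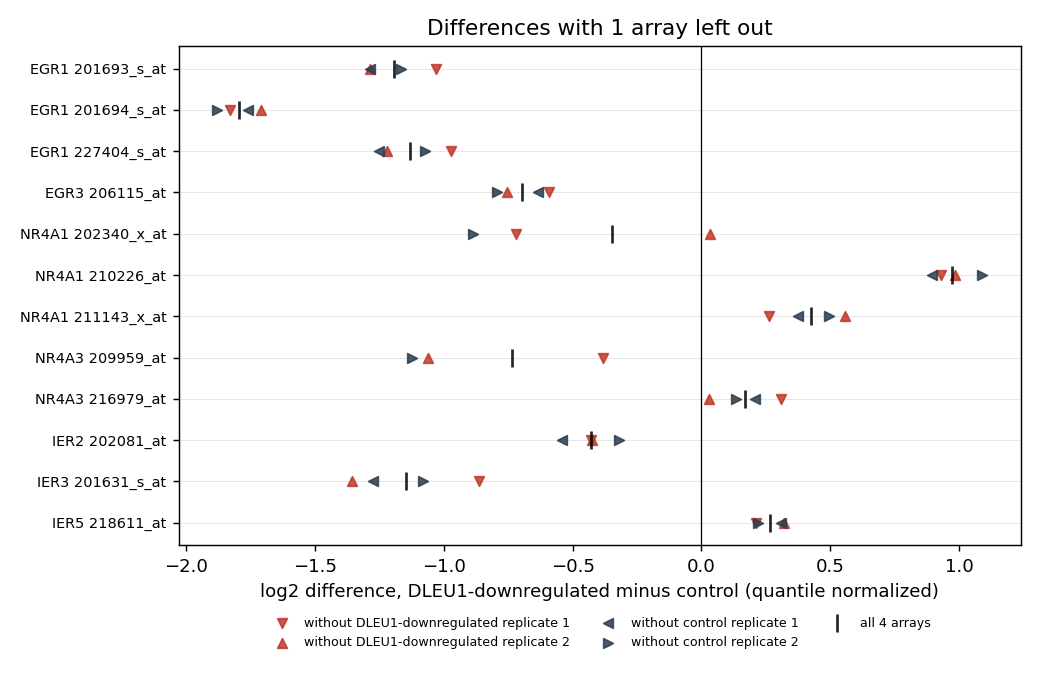
Log2 difference, DLEU1-downregulated minus control, of the tested member probe sets after quantile normalization with all 4 arrays (bar) and with each array left out (triangles, 1 shape and colour per array). The EGR1 values stay below -0.9, while NR4A1 202340_x_at crosses 0 without replicate 2 of the DLEU1-downregulated clone. A probe set that fell under the filter on dim probe sets in a fit has no triangle there.

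The factors that are known to act before these genes were examined as lists, each gene by its brightest tested probe set, and over all 13292 genes 41.2% were called, 20.6% lower and 20.6% higher. As deposited 5.74% of genes were called lower and 20.3% higher. SRF, the serum response factor, rose, with 217.4 and 202.9 in the DLEU1-downregulated clone and 106.5 and 86.4 in the control clone (log2 difference 0.75 ± 0.14 SE, limma adjusted p = 0.00267). The list of SRF and its cofactors also held ETS2, which rose, and ETS1, with a log2 difference of -0.21 (0.17 as deposited). Of all 8 genes in this list 3 rose and 3 fell (3 and 1 as deposited), with a list median of 0.17 (0.46 as deposited). Without either DLEU1-downregulated array 1 was called higher. ETS2, an ERK-responsive factor, rose by 1.26, and ELK1, an ERK-activated SRF cofactor, by 0.40, the latter in a probe set with the suffix _x_at. ELK3, a cofactor of the same family that can repress, fell by 1.04. ELK4, the third of that family, fell by 0.38, but its log2 difference was -0.02 as deposited and 0.02 after median centring.

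In the ERK cascade 6 of 21 tested genes rose and 7 fell (7 and 1 as deposited), with a list median of -0.02. MAPK3, the kinase ERK1, fell by 1.06 (limma adjusted p = 0.00116), with 75.2 and 120.9 in the DLEU1-downregulated clone and 218.1 and 148.7 in the control clone, in a probe set with the suffix _x_at. MAP2K1, the ERK activator MEK1, fell by 0.73, and SOS2, a RAS exchange factor, by 0.75. As deposited neither passed. RPS6KA3, an ERK-activated kinase of the RSK family, rose by 0.95, and PEBP1, an inhibitor of RAF, by 0.34.

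Of 27 genes of the CREB, calcineurin and MEF2 route, 3 rose and 8 fell (4 and 4 as deposited, 13 and 6 after median centring), with a list median of 0.07. Over all 32768 tested probe sets, median centring called 10420 higher and 2482 lower. MEF2A fell by 1.08 (limma adjusted p = 1.12e-05), with 540.5 and 576.5 in the DLEU1-downregulated clone and 1024.2 and 874.5 in the control clone. MEF2C, a relative that is abundant in B cells, fell by 0.72, though not past the threshold as deposited (log2 difference -0.36). HDAC7, a deacetylase that represses MEF2 targets, fell by 1.58, and CAMK2D, a calcium-dependent kinase, by 1.48. PPP3CC, a catalytic subunit of calcineurin, fell by 1.39, and like EGR3 it lies on chromosome 8 among neighbours of which limma called 13 of 30 lower and 0 higher (13 and 2 at an unadjusted p under 0.05). The neighbours of PPP3CC and EGR3 were not compared and may be largely the same genes, so the counts are not separate observations.

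Among the EGR corepressors and EGR target genes 4 of 9 rose and 3 fell (4 and 1 as deposited), with a list median of 0.04. Without replicate 1 of the DLEU1-downregulated clone 2 were called higher. Both corepressors were higher where EGR1 was lower. NAB2, which binds EGR proteins and represses their activity, read 84.9 and 74.8 in the DLEU1-downregulated clone and 36.7 and 26.5 in the control clone (log2 difference 0.91 ± 0.19 SE, limma adjusted p = 0.00595). NAB1, its relative, read 386.7 and 464.7 in the DLEU1-downregulated clone and 247.5 and 178.9 in the control clone (0.65 ± 0.10 SE, adjusted p = 9.25e-04). TGFB1, a cytokine gene, rose by 1.33, and BCL2L11, which encodes the death protein BIM, by 0.26. TNFSF10, the death ligand TRAIL, fell by 1.23 and CBLB, a ubiquitin ligase that restrains lymphocyte receptors, by 0.87, which as deposited did not pass.

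Of 9 tested NR4A partners and linked genes, 2 rose and 2 fell (2 and 1 as deposited), with a list median of 0.19. With no filter on dim probe sets, and likewise with eBayes without a trend, 0 were called higher and 1 lower. RXRA, a partner receptor of NR4A proteins, rose by 0.91 (limma adjusted p = 0.0180) at low levels, with 62.4 and 51.3 in the DLEU1-downregulated clone and 30.6 and 14.5 in the control clone. NCOA1, a receptor coactivator, rose by 0.39. RXRB had a log2 difference of -0.50 (adjusted p = 0.0617), and RXRG was too dim to test. NR3C1, the glucocorticoid receptor, fell by 0.96, in a probe set with the suffix _x_at. HDAC1, a deacetylase, fell by 0.19, but its log2 difference was 0.19 as deposited and 0.23 after median centring.

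Among the IER partners and phosphatase 2A subunits 1 of 15 rose and 6 fell (1 and 1 as deposited), with a list median of -0.07. PPP2R2A, a regulatory subunit, fell by 1.32 (limma adjusted p = 2.18e-06), with 733 and 813.2 in the DLEU1-downregulated clone and 1655.9 and 1402.5 in the control clone. It too lies on chromosome 8, where limma called 20 of its 30 neighbours lower and 0 higher (22 and 0 at an unadjusted p under 0.05). Whether these neighbours include some of those of EGR3 and PPP3CC was not examined. PPP2R1A, a scaffold subunit, rose by 0.48. PPP2R5C, another regulatory subunit, fell by 0.45 and CDC25B, a cell cycle phosphatase, by 0.44, while as deposited both had log2 differences of -0.08. HAX1, an anti-apoptotic protein, fell by 0.38, but its log2 difference was -0.01 as deposited and 0.04 after median centring. HSF1, the heat shock factor with which IER5 is known to act, had a log2 difference of 0.16 (adjusted p = 0.40), and IER3IP1, an IER3-interacting protein, of -0.01 (adjusted p = 0.895). IER5L, a relative of IER5, was too dim to test.

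In 42 tested genes of the wider immediate early response, 11 rose and 10 fell (11 and 5 as deposited), with a list median of -0.07. RGS1, a regulator of G-protein signalling, fell by 1.57, with 629.2 and 841.5 in the DLEU1-downregulated clone and 1972 and 1462.5 in the control clone. SPRED2, an inhibitor of the RAS to ERK route, fell by 1.84 and BTG1, an antiproliferative gene, by 1.06. KLF10, a Kruppel-like factor induced by TGF-beta, rose by 0.81, with 1041.2 and 1150.3 in the DLEU1-downregulated clone and 576.9 and 399 in the control clone. GADD45B, a stress-induced gene, fell by 0.64, and its log2 difference as deposited was -0.28 and did not pass.

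**Figure D5:**
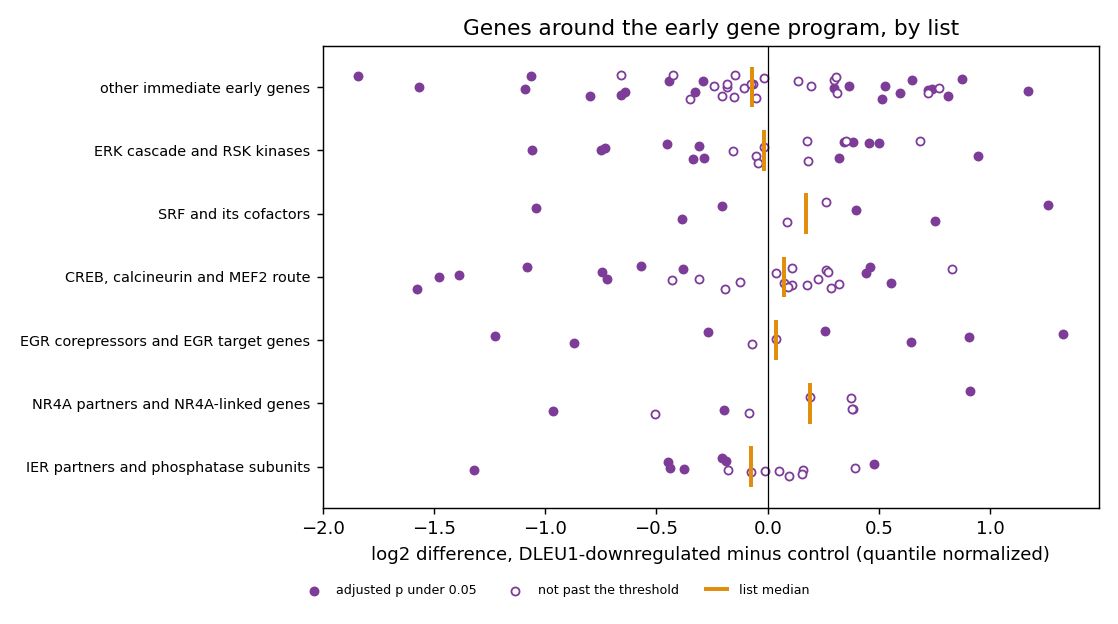
Log2 difference, DLEU1-downregulated minus control, after quantile normalization for each tested gene of 7 lists around the early genes, with filled circles for an adjusted p under 0.05, open circles for the rest and a bar for each list's median. Every list has genes on both sides of 0, and the list medians lie between -0.07 and 0.19.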

How the data were processed

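RNA of 4 arrays was compared, 2 of the DLEU1-downregulated clone and 2 of the control clone, grouped by the sample titles. The authors deposited 1 table of linear intensity values for 54613 probe sets and 62 control probe sets, made with MAS5 per the submitters' processing notes, whose version and target intensity the sources used here do not give. The authors' trimmed means differed, so log2(intensity + 16) was quantile normalized over the arrays. Control probe sets and 21845 dim ones, under the 40th percentile of mean log2 value, were left out of the tests. The functions lmFit and eBayes (trend by intensity) of limma 3.58.1, under R 4.3.3, were run with group as the only term, with Benjamini-Hochberg adjustment over 32768 probe sets and a threshold of 0.05. An earlier account of these files took the values as deposited as its main setting, and that setting is an alternative here. The limma prior degrees of freedom were 6.75 after quantile normalization and infinite as deposited.

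Probe sets were named from the platform annotation of 2016, in which 41091 carried 1 symbol, 1801 several and 11721 none. Current symbols came from RefSeq on GRCh38.p14 through gene identifiers, with 41037 probe sets matched, and 6 of the 9 member genes had a promoter window. Members and lists were chosen with earlier results of these data known. Named genes were all members, DLEU1, up to 5 genes with the smallest p past the threshold in each list, and SRF, NAB1, NAB2, EGR4, IER5L, RXRA, RXRB, RXRG, HSF1 and IER3IP1. The marker genes, the chromosomal neighbours and ETS1 were named beside the results they touch. The fit was tested on simulated data. Alternatives were other scalings, pseudocounts, filters, thresholds and eBayes settings, a replicate term, each array left out, _x_at probe sets left out and gene means over probe sets. The number of arrays limits the precision.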

Additional observations from a re-analysis of the deposited data

How the results depend on the processing

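The count of probe sets past the threshold, 11072, was 7293 as deposited, 7179 with eBayes without a trend and 7155 at a threshold of 0.01, and 7005 to 10073 with 1 array left out, lowest without replicate 1 of the DLEU1-downregulated clone (7362 without its replicate 2). Calls split into 50.4% higher after quantile normalization, 77.1% as deposited, 44.9% with a common trimmed mean and 80.8% after median centring. Of the member probe sets, the 6 called lower became 3 with the filter at the 60th percentile, which left fewer to test, and 4 to 5 with 1 array left out. The 2 called higher became 1 with that filter and 1 with eBayes without a trend. At a threshold of 0.01 limma called 0 higher (2 at an unadjusted p under 0.05). With 1 array left out, 0 to 2 were called higher, 0 without replicate 1 of the DLEU1-downregulated clone (2 at an unadjusted p under 0.05), and 1 without its replicate 2 or without control replicate 2. A lone array is assumed in these fits to vary like the other group. The 69 calls over the 7 lists became 43 with eBayes without a trend, and of 210 counts per list, direction and alternative 40 moved by over 1.5 times. Calls higher and lower after median centring were 17 and 5 for the wider early genes, 10 and 2 for the ERK cascade, 4 and 1 for the SRF list, 13 and 6 for the CREB route, 4 and 2 for the EGR list, 4 and 1 for the NR4A list and 6 and 1 for the IER list. Over all tested probe sets that scaling called 10420 higher and 2482 lower, with a median log2 difference of 0.21. IER2 and IER5 lost their calls with eBayes without a trend (adjusted p = 0.0711 and 0.138). The 3 EGR1 probe sets passed under every alternative that tested them, 13 for 227404_s_at and 14 for each of the others. The log2 difference of NR4A1 202340_x_at ran from -0.89 without control replicate 2 to 0.032 without replicate 2 of the DLEU1-downregulated clone, and that of NR4A3 216979_at turned to -0.054 with a common trimmed mean, neither past the threshold. NR4A3 209959_at passed after median centring alone (adjusted p = 0.0394). Adding the replicate number as a block gave 11143 calls over all probe sets and 5 lower and 2 higher member probe sets, EGR3 being the one lost (adjusted p = 0.0522). Deviations of same-numbered arrays from their group means correlated at -0.01 over the tested probe sets, so no strong shift common to them was seen. This cannot show whether same-numbered arrays shared a batch or culture, which was not given. The causes of these changes were not tested. Low intensities, as for the NR4A probe sets, are limited by signal over background, which could not be judged without detection calls.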
